A study of Rattus norvegicus with 12 samples.

Results

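The 10 genes described here encode enzymes that break down the branched-chain amino acids leucine, isoleucine and valine. They are Dbt, the gene from which the set was built, with Bckdha, Bckdhb, Dld and Bckdk of the same enzyme complex, Bcat1 and Bcat2 of the step before it, and Ivd, Mccc1 and Hibadh of the steps after it. Every non-control probe that carries one of these gene names was taken, which gave 11 probes of the 30367 on the array (10 of 26514 gene names, with 2 probes for Bcat2). Dbt entered because its signal was lower in maternally separated rats than in controls in an earlier look at these arrays. That difference is therefore given below as a description, and nothing is read from its test result. The other 9 genes were added for their place in the pathway, with results of the same arrays in view.

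Branched-chain amino acids are first stripped of their amino group by the transaminases Bcat1, of the cytosol, and Bcat2, of the mitochondrion. The keto acids that result are oxidised by the mitochondrial branched-chain keto acid dehydrogenase complex, which is built from an E1 component with the subunits Bckdha and Bckdhb, the E2 core Dbt, and the E3 component Dld, which is shared with other dehydrogenase complexes. Bckdk phosphorylates E1 and so switches the complex off, and the leucine, isoleucine and valine branches then lead to acetyl-CoA, acetoacetate and propionyl-CoA.

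Colon RNA of 12 male Wistar rats of 200 to 250 g was hybridised to 1-colour 60-mer arrays, 1 rat to an array. Group C (rats C1 to C4) was normally handled and received placebo. Group M (M5 to M8) underwent neonatal maternal separation (NMS), 180 min a day away from the dam from postnatal day 2 to 14, and received placebo. Group D (D9 to D12) underwent NMS and received the probiotic mixture VSL#3 by daily gavage from day 3 to 60, in 100 µl; the labels and the methods differ on the dose. All 12 rats had undergone colorectal distension, and the same distal segment of the colon was taken at day 60. The comparisons ask how these genes differ after NMS (Group M vs Group C), with VSL#3 in separated rats (Group D vs Group M), and between VSL#3-treated separated rats and controls (Group D vs Group C).

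Levels are log2 intensities relative to the array's 75th percentile, so that 0 is the level of the 75th percentile of all probes of that array. The 75th percentile lay between 1434 and 1950 intensity units, no spot was saturated, and 75.5 to 77.5% of spots were well above background. All 11 probes were well above background on all 12 arrays. The tests used the 11 arrays the study's methods analysed, and D12 is given apart. Group C and Group M shared a slide but lay in different rows of it, and Group D was on another slide with its own scan. Array row and group therefore cannot be told apart in Group M vs Group C, nor slide and treatment in either comparison with Group D. The markers listed for epithelium, goblet cells and smooth muscle were well above background on every array, so the labelled tissue was not contradicted. Rats D12, M6 and C2 stood apart from their groups over these probes. D12 was nearer the mean of Group M than that of the rest of Group D at 11 of 11 probes, M6 was nearer Group C at 7 of 11, and C2 was nearer Group M at 7 of 11. Values with D12 included, or without M6 or C2, are given for the main differences.

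The probes for Dbt and Bcat1, the members on which the results turn, each hold 60 bases, and the first 30 of each are shown to identify what was measured. The Dbt probe lies on rn4 chr2:212787269-212787328, plus strand, and starts at base 2240 of its transcript. The Bcat1 probe lies on rn4 chr4:182641524-182641583, minus strand, and starts at base 2396. Whether these bases are coding was not examined, as no rn4 annotation was used here. The 2 Bcat2 probes share 50 bases and are not independent measurements.
Dbt probe: taccgatttattgccttttgatttcattga
Bcat1 probe: tgtggaaatgacagctactgtacattatgt

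The sequence upstream of the transcription start is shown for Dbt, for Mccc1, the member whose pattern over the rats was most like that of Dbt, and for Bcat1, which went the other way. Each is the 250 bases before a start annotated by RefSeq in GRCr8, and Bcat1 has 2 such starts. Capitals mark matches on either strand to the GC box (GGGCGG) or the CCAAT box (CCAAT), and no 2 marked matches overlap. The Dbt window is chr2:207166410-207166659 (plus strand), the Mccc1 window chr2:120779242-120779491 (minus strand), and the Bcat1 windows chr4:179777289-179777538 and chr4:179744209-179744458 (minus strand).
Dbt: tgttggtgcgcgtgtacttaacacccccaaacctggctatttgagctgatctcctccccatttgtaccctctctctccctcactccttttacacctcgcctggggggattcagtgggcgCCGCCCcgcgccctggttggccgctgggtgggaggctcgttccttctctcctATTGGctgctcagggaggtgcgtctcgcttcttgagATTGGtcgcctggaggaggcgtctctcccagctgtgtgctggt
Mccc1: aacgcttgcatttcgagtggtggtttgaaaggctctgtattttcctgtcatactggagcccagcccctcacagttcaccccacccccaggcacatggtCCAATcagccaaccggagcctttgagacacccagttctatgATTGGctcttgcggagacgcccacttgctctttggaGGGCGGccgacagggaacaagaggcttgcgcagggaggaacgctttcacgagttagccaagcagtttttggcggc
Bcat1, first start: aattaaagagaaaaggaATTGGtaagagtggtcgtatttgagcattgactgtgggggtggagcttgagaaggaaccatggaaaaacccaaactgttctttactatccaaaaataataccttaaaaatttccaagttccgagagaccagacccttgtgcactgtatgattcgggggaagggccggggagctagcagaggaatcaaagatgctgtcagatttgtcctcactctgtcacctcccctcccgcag
Bcat1, second start: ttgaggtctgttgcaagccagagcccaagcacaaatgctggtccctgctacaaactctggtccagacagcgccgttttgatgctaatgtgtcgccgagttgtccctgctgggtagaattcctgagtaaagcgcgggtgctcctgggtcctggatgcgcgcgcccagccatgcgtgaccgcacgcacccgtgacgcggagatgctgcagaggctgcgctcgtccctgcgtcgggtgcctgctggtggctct

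Of the 10 genes, 9 had a start in the table, all but Bckdha. The CCAAT box letters were in a window of 7 of the 9 (Dbt, Bckdhb, Dld, Bcat1, Ivd, Mccc1 and Hibadh), against 34% of 33469 promoter windows of the same length. The GC box letters were in a window of 6 of the 9, against 30.5% of all windows. Dld held the TATA box (TATAAA), present in 12.9% of all windows. The E-box (CACGTG, in 5.59% of all windows) and the amino acid response element (TGATGNAA, in 3.4%) matched in 0 of the 9 genes. These are matches of letters and were not tested for binding.

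In separated rats most of these probes lay below controls, with Bcat1 as the exception. Of the 11 probes, 10 were below 0 in Group M vs Group C, with a median log2 difference of -0.54, where 52.6% of all probes were below 0 and the median over all probes was -0.01. Dbt was the member called at an adjusted p of at most 0.05 (limma, Benjamini-Hochberg over all probes), where 0.207% of all probes were called. Since Dbt was picked by this contrast, nothing is read from its call. Over the 10 other probes, 9 were below 0 with a median of -0.53, and 0 were called at an adjusted p of at most 0.05. At an unadjusted p of at most 0.05, 7 of the 10 were lower and 1 was higher, where 12.9% and 9.86% of all probes passed in these directions. Of the same 10, 3 had all of Group M below all of Group C (Mccc1 and both of Bcat2), as 5.17% of all probes did, and 1 had it above (Bcat1), as 4.07% did. By the methods' criterion (unadjusted analysis of variance and Tukey p-values of at most 0.05 and a 2-fold change) 0 of the 10 were lower, where 0.962% of all probes were, and Bcat1 was higher. In bulk tissue, fewer cells of a type and less RNA per cell cannot be told apart.

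**Figure D1:**
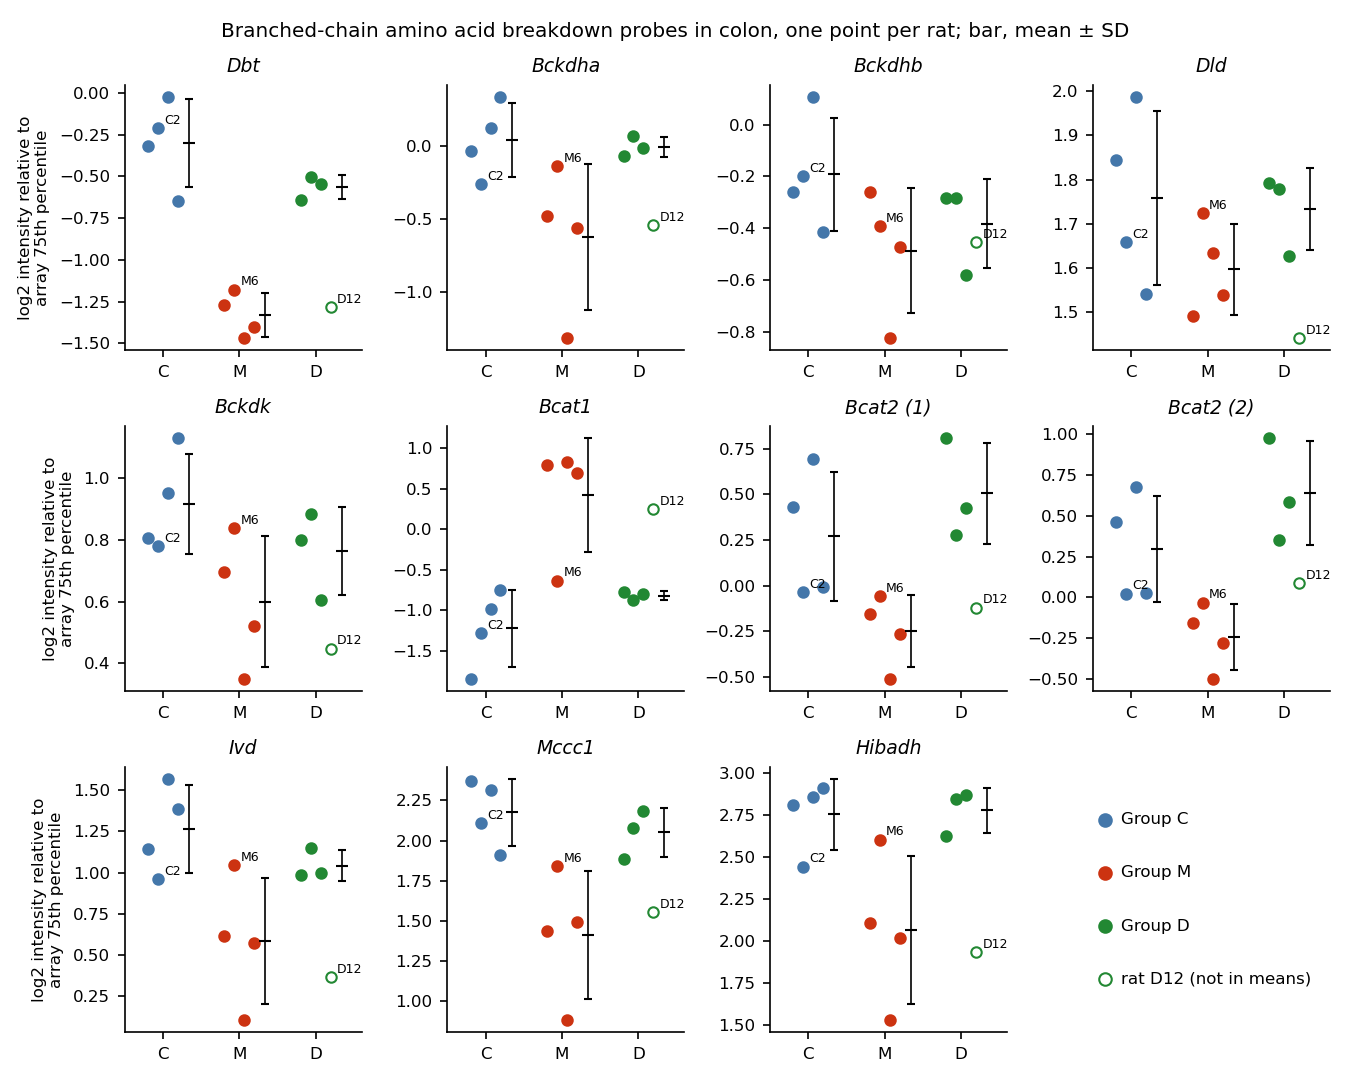
Log2 intensity relative to the array's 75th percentile of each of the 11 probes, 1 panel a probe with its own axis, and 1 point a rat in Group C, Group M and Group D. Bars show the mean ± SD over the 11 arrays tested, and the open circle is D12. Group M lies below all of Group C for Dbt, Mccc1 and both Bcat2 probes, and above it for Bcat1.

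Dbt carries the acyltransferase of the dehydrogenase complex and forms its core. Its level in Group C was -0.32 in C1, -0.21 in C2, -0.02 in C3 and -0.65 in C4. In Group M, rat M5 had -1.27, M6 had -1.18, M7 had -1.47 and M8 had -1.41. All 4 separated rats lay below all 4 controls, M6 and C2 included. Controls averaged -0.30 ± 0.26 (SD, n = 4) and separated rats -1.33 ± 0.13 (SD, n = 4), so that Group M stood at -1.03 log2 units from Group C (SE 0.13, 95% interval -1.33 to -0.73), or a 2.04-fold lower signal in Group M. Without M6 the difference was -1.08, and without C2 it was -0.9996.

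In Group D the Dbt level was -0.64 in D9, -0.51 in D10 and -0.55 in D11, all above the 4 rats of Group M and within the range of Group C. D12 was at -1.28, within the range of Group M. The log2 difference of Group D from Group M was 0.76 (SE 0.14, 95% interval 0.44 to 1.08, n = 3 and 4), which missed the threshold (limma adjusted p = 0.0702). With D12 included it was 0.59 (limma adjusted p = 0.266). Both comparisons share the Group M rats whose low signal picked Dbt, so this difference does not stand apart from the choice. Group D differed from Group C by -0.26 (95% interval -0.58 to 0.06, limma adjusted p = 0.887), and by -0.44 with D12 included. An interval of this width does not show that the 2 groups were alike.

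The E1 subunits of the complex, which decarboxylate the keto acids, lay lower in Group M by smaller amounts. Bckdha was at -0.04, -0.26, 0.12 and 0.34 in C1 to C4 and at -0.48, -0.14, -1.31 and -0.56 in M5 to M8, and M6 overlapped the controls. Its log2 difference was -0.66 (95% interval -1.16 to -0.16), with a limma adjusted p of 0.137. Without M7 it was -0.43, and without C2 it was -0.76. The array lists only 19 bases of the genome for this probe. Bckdhb was at -0.26, -0.20, 0.11 and -0.41 in Group C and at -0.26, -0.39, -0.83 and -0.47 in Group M, so that most of the ranges overlapped, and its difference was -0.30 (95% interval -0.63 to 0.04, limma adjusted p = 0.279), or -0.18 without M7. The E1 subunit probes therefore shared the direction of Dbt without passing the test.

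Dld, the dihydrolipoamide dehydrogenase that also serves the pyruvate and 2-oxoglutarate complexes, was at 1.84, 1.66, 1.99 and 1.54 in Group C and at 1.49, 1.72, 1.63 and 1.54 in Group M. The difference of -0.16 (95% interval -0.41 to 0.09, limma adjusted p = 0.43) was the smallest of the 11 probes. Bckdk, the kinase that inactivates the complex, was at 0.81, 0.78, 0.95 and 1.13 in Group C and at 0.70, 0.84, 0.35 and 0.52 in Group M, with a difference of -0.32 (95% interval -0.61 to -0.03, limma adjusted p = 0.187). The kinase thus lay on the same side as the subunits it acts on. Ppm1k, the phosphatase that reverses Bckdk and is not one of the 10 genes, differed by -0.16 between Group M and Group C (limma adjusted p = 0.569).

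With VSL#3, Bckdha was at -0.07, 0.07 and -0.01 in D9 to D11, above all of Group M, and D12 was at -0.54. Its log2 difference from Group M was 0.62 (95% interval 0.07 to 1.16, limma adjusted p = 0.182), 0.39 without M7 and 0.48 with D12 included. Bckdhb, Dld and Bckdk differed from Group M by 0.11, 0.14 and 0.16, each within an interval that holds 0, and their D9 to D11 values overlapped those of Group M. Within the complex, D9 to D11 thus stood clear of Group M for Dbt and Bckdha and not for the other 3 probes.

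Bcat1, the cytosolic transaminase, ran opposite to the rest. Its level was -1.85, -1.28, -0.99 and -0.75 in C1 to C4, and 0.80, -0.63, 0.84 and 0.70 in M5 to M8. All of Group M lay above all of Group C, but M6 was only just above C4, while the other Group M rats were far higher. Controls averaged -1.22 ± 0.47 (SD, n = 4) and separated rats 0.42 ± 0.71 (SD, n = 4), which put Group M 1.64 log2 units above Group C (SE 0.33, 95% interval 0.90 to 2.39, 3.12-fold higher in Group M). This missed the threshold with limma and Benjamini-Hochberg adjustment (adjusted p = 0.0868), but met the methods' criterion, which 1.37% of all probes met in this direction. Without M6 the difference was 1.99 and passed the test (limma adjusted p = 0.00365), with 16.2% of all probes passing without that rat. The 2 spots of this probe differed by up to 0.95 on the log2 scale on 1 array, more than for any other of the 11 probes.

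In Group D, Bcat1 was at -0.77, -0.88 and -0.80 in D9 to D11, below all of Group M, and at 0.25 in D12. The log2 difference from Group M was -1.24 (SE 0.36, 95% interval -2.05 to -0.44, limma adjusted p = 0.113), or 2.36-fold lower, and met the methods' criterion, as 1.51% of all probes did in this direction. With D12 it was -0.97 (limma adjusted p = 0.35), and without M6 it was -1.59 (limma adjusted p = 0.0088). Against Group C, Bcat1 differed by 0.40 (95% interval -0.40 to 1.21), by 0.67 with D12 included and by 0.19 without C1.

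Bcat2, the mitochondrial transaminase, lay on the side of Dbt. Its first probe was at 0.43, -0.04, 0.69 and -0.01 in Group C and at -0.16, -0.06, -0.51 and -0.27 in Group M, with the groups just apart at C2 and M6. The difference was -0.52 at this probe (95% interval -0.94 to -0.09, limma adjusted p = 0.154) and -0.54 at the other (95% interval -0.97 to -0.12, limma adjusted p = 0.144). In Group D the first probe was at 0.81, 0.28 and 0.43 in D9 to D11 and at -0.12 in D12. The 2 probes differed from Group M by 0.75 and 0.88 (limma adjusted p = 0.103 and 0.0837), and from Group C by 0.24 and 0.34 (limma adjusted p = 0.974 and 0.919), with Group D having the highest mean of the 3 groups. With D12 included, the differences from Group M were 0.60 and 0.75. The transaminases therefore lay on opposite sides of 0 after NMS, and again with VSL#3.

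**Figure D2:**
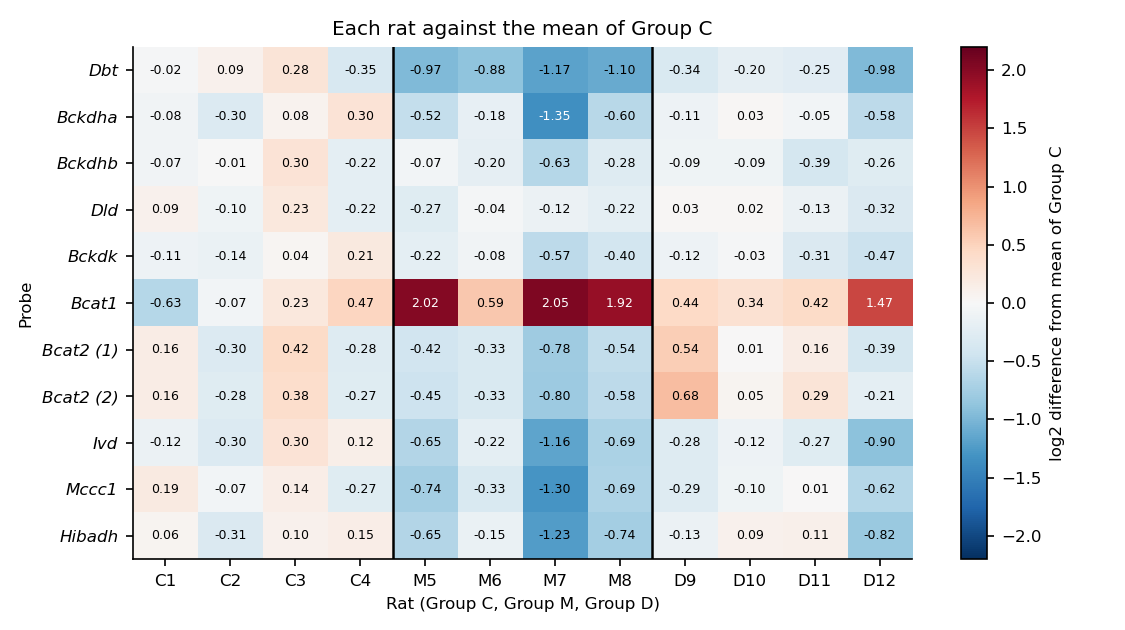
Log2 difference of each of the 12 rats (columns, grouped as C, M and D) from the mean of Group C, for each of the 11 probes (rows), with the value printed in each cell. M5, M7 and M8 are blue at nearly all probes and strongly red at Bcat1, D12 resembles them, and M6 is pale except at Dbt (-0.88) and Bcat1 (0.59).

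Downstream in the leucine branch, Ivd oxidises isovaleryl-CoA and Mccc1 is the biotin-carrying subunit of methylcrotonyl-CoA carboxylase. Mccc1 was at 2.37, 2.11, 2.32 and 1.91 in Group C and at 1.44, 1.84, 0.88 and 1.49 in Group M. All Group M rats were below all controls, M6 and C4 being the closest pair. The log2 difference was -0.76 (SE 0.19, 95% interval -1.19 to -0.34, limma adjusted p = 0.1). Without M6 it was -0.91 and passed the test (limma adjusted p = 0.015), as 16.2% of all probes did without that rat, and without M7 it was -0.59. In D9 to D11 Mccc1 was at 1.89, 2.08 and 2.19, above Group M by 0.64 (limma adjusted p = 0.133), and D12 was at 1.55, which made the difference 0.51 when it was included.

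Ivd was at 1.14, 0.96, 1.57 and 1.39 in Group C and at 0.61, 1.05, 0.11 and 0.58 in Group M. M6 lay above C2 here, and the other 3 separated rats were below every control. The difference was -0.68 (95% interval -1.11 to -0.25, limma adjusted p = 0.111), -0.83 without M6 (limma adjusted p = 0.018, where 16.2% of all probes passed) and -0.52 without M7. Group D was at 0.99, 1.15 and 0.996 in D9 to D11, which straddled M6, and at 0.37 in D12. Its difference from Group M was 0.46 (95% interval -0.01 to 0.93, limma adjusted p = 0.238), 0.29 with D12 included (limma adjusted p = 0.626) and 0.30 without M7.

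Hibadh, which oxidises 3-hydroxyisobutyrate in the valine branch, was at 2.81, 2.44, 2.86 and 2.91 in Group C and at 2.11, 2.604, 1.53 and 2.01 in Group M. As for Ivd, M6 lay above C2, and M5, M7 and M8 were below every control. The difference was -0.69 (95% interval -1.15 to -0.24, limma adjusted p = 0.115), -0.87 without M6 (limma adjusted p = 0.015, where 16.2% of all probes passed) and -0.51 without M7. In D9 to D11 Hibadh was at 2.62, 2.85 and 2.87, above all of Group M by a mean of 0.72 (limma adjusted p = 0.124), and D12 was at 1.93, which made the difference 0.50 when it was included.

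Across the 10 probes other than Dbt, the difference of Group D from Group M was above 0 for 9 and below 0 for Bcat1, with a median of 0.54, where 46.7% of all probes were below 0 and the median over all probes was 0.02. With limma, 0 of the 10 passed the adjusted threshold of 0.05 (0.161% of all probes did), and the lowest adjusted p was 0.0837. At an unadjusted p of at most 0.05, 5 were higher and 1 was lower, where 11.8% and 9.85% of all probes passed in these directions. In 5 probes (Bckdha, both of Bcat2, Mccc1 and Hibadh) all of D9 to D11 lay above all of Group M, as they did for 9.06% of all probes, and in Bcat1 all lay below, as for 6.89%. Without M6, 7 of the 11 probes passed the adjusted test in Group D vs Group M (both Bcat2 probes, Bcat1, Bckdha, Dbt, Hibadh and Mccc1), where 15% of all probes did. In Group M vs Group C, 6 passed without M6 (Bcat1, Bckdha, Dbt, Hibadh, Ivd and Mccc1), where 16.2% of all probes did. Without C2, that comparison gave -0.79 for Mccc1, -0.78 for Ivd, -0.80 for Hibadh, -0.62 and -0.63 for the Bcat2 probes and 1.62 for Bcat1. Mccc1, Ivd, Hibadh and Bcat1 did not pass without C2 (limma adjusted p = 0.0887, 0.0853, 0.0872 and 0.0787), where 0.24% of all probes passed. Each of these genes passed in 1 of the 11 fits that left out 1 rat, the fit without M6. Their highest limma adjusted p over the 11 fits was 0.241, 0.249, 0.254 and 0.232.

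Group D vs Group C gave no call. Of the 11 probes 7 were below 0 (50.1% of all probes were), the median was -0.05, the groups overlapped at all 11 (7.6% of all probes did not overlap), and 0 passed limma's adjusted threshold of 0.05 (0.00659% of all probes did), at an unadjusted p of at most 0.05 (5.98%) or by the methods' criterion (0.366%). The lowest adjusted p was 0.887, for Dbt. The 3 comparisons share rats, and Group M enters the first and second with opposite sign.

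**Figure D3:**
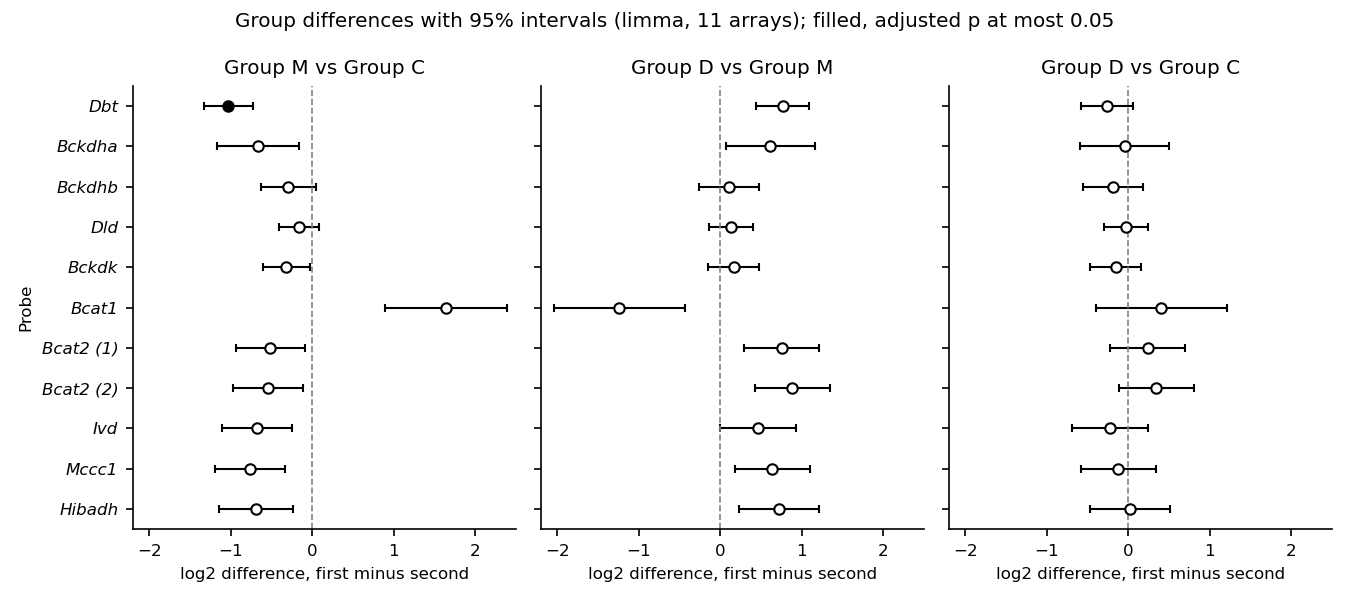
Log2 difference with its 95% interval (limma, 11 arrays) of each of the 11 probes in the 3 comparisons, first group minus second. The filled point is Dbt in Group M vs Group C, the contrast that picked it. Group M vs Group C lies left of 0 and Group D vs Group M right of 0 for 10 probes, with Bcat1 reversed in both.

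The other genes of the pathway were described from lists of 61 genes, of which 59 were measured (Acad8 and Mmab were not found by name), with the brightest probe taken for each gene. With limma, 0 of the 59 passed the adjusted threshold of 0.05 in each of the 3 comparisons. In Group M vs Group C, 47 of the 59 were below 0 with a median of -0.27, and 26 were lower and 3 higher at an unadjusted p of at most 0.05, as 12.9% and 9.86% of all probes were. In Group D vs Group M, 42 were above 0 with a median of 0.21, and 14 were higher and 3 lower at that p, as 11.8% and 9.85% of all probes were. In Group D vs Group C, 1 was higher and 1 lower at that p (5.98% of all probes passed in either direction). The higher one, Slc6a15, is also among the 14, and was well above background on 0 of 12 arrays.

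The remaining enzymes of the leucine, isoleucine, valine and propionate branches lay mostly on the same side as the 10 genes. Of 14 measured, 13 were below 0 in Group M vs Group C with a median of -0.54, and 12 were lower at an unadjusted p of at most 0.05 (12.9% of all probes were). Hibch, which releases 3-hydroxyisobutyrate for Hibadh, differed by -0.84 (limma adjusted p = 0.115), and its other probe by -0.77. Mcee and Mut, which carry methylmalonyl-CoA into succinyl-CoA, differed by -0.73 and -0.57 (limma adjusted p = 0.135 and 0.131). Echs1, a mitochondrial enoyl-CoA hydratase, differed by -0.65, Auh of the leucine branch by -0.62, and Aldh6a1 of the valine branch by -0.59 (limma adjusted p = 0.111, 0.171 and 0.137). Acadsb, the short/branched-chain acyl-CoA dehydrogenase of the isoleucine branch, was the one above 0, at 0.41 (limma adjusted p = 0.284). Without M6, Aldh6a1, Auh, Echs1, Hibch, Mcee and Mut passed limma's adjusted threshold, as 16.2% of all probes did.

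The transporters did not share one direction. Of 11, 5 were below and 6 above 0 in Group M vs Group C, with a median of 0.01. Slc7a5, the light chain of a plasma membrane exchanger of large neutral amino acids, was at -6.36, -5.03, -6.32 and -5.68 in Group C and at -4.15, -5.13, -3.28 and -4.36 in Group M. M6 lay below C2 in this case, and M5, M7 and M8 were above every control. The log2 difference was 1.62 (95% interval 0.73 to 2.498, limma adjusted p = 0.0996), and that of Group D from Group M was -1.65 (limma adjusted p = 0.0985). Both met the methods' criterion, as 1.37% and 1.51% of all probes did in these directions. Slc7a5 was the only 1 of the 59 other pathway genes that met it in either comparison. Under the 11 alternatives described below, the Slc7a5 difference was 0.73 to 1.73 in Group M vs Group C. It was -1.66 to -0.74 in Group D vs Group M, so the smallest values were below 2-fold. With D12 included, Group D differed from Group M by -1.22 (limma adjusted p = 0.364). Slc7a6, another light chain, differed by 0.82 between Group M and Group C (limma adjusted p = 0.106).

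The complexes that share Dld or the same design, pyruvate and 2-oxoglutarate dehydrogenase with their kinases and phosphatases, had 11 of 12 genes below 0 in Group M vs Group C, with a median of -0.22, and 2 were lower at an unadjusted p of at most 0.05 (12.9% of all probes were). These were Pdk2, a pyruvate dehydrogenase kinase, at -1.08 (limma adjusted p = 0.126) and Pdhb, an E1 subunit, at -0.48 (limma adjusted p = 0.134). Of the 6 genes that make or attach lipoate, the cofactor bound to Dbt, 3 were below 0, and Lias, the lipoyl synthase, had the lowest difference at -0.73 (limma adjusted p = 0.142). Gcsh, the lipoyl protein of glycine cleavage, differed by -0.34 (limma adjusted p = 0.241), and its other probe by -0.31.

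**Figure D4:**
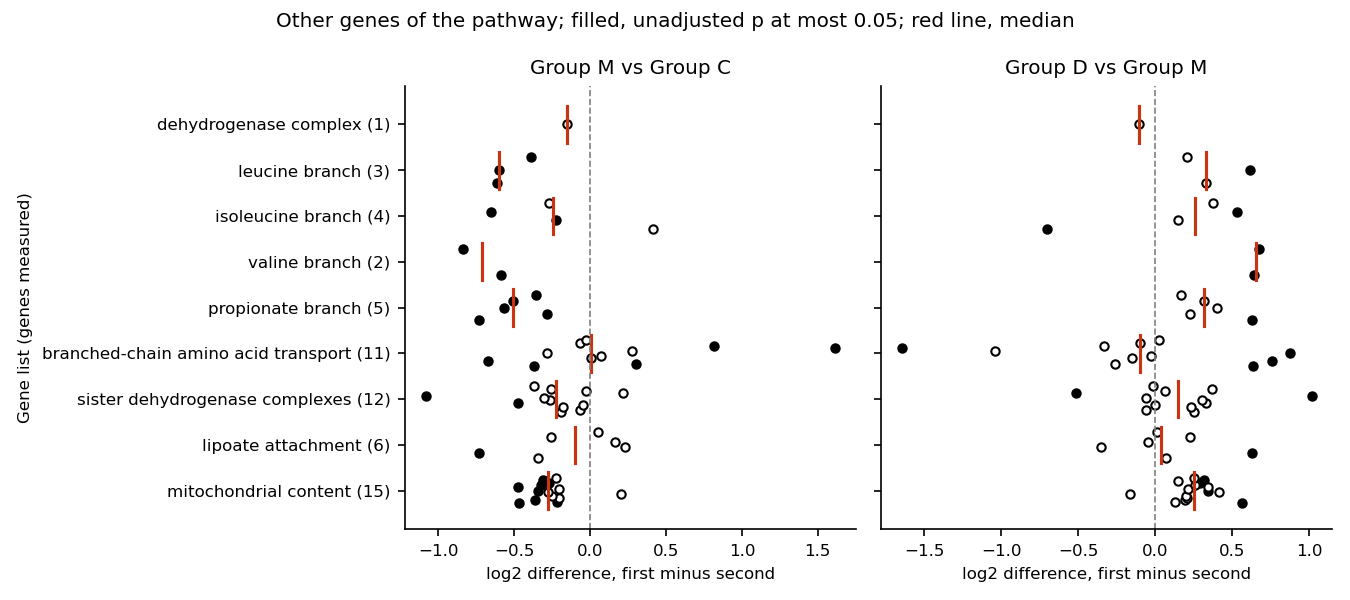
Log2 difference of each of the 59 other pathway genes in Group M vs Group C (left) and Group D vs Group M (right), by gene list, with the number measured in brackets, filled at an unadjusted p of at most 0.05, and a red line at each list's median. The branch enzymes and the mitochondrial genes lie mostly left of 0 in the first panel and right of 0 in the second, with Slc7a5 and Slc7a6 at the far right of the first.

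Genes of general mitochondrial content lay mostly on the same side. Of 15 such genes, 14 were below 0 in Group M vs Group C, with a median of -0.28, and 9 were lower at an unadjusted p of at most 0.05 (12.9% of all probes were). Sdha, of succinate dehydrogenase, differed by -0.48 (limma adjusted p = 0.118). The summed signal of the 15 genes, in units of the array's 75th percentile, was 236 to 290 in Group C and 217 to 260 in Group M. It was 250 to 275 in D9 to D11 and 198 in D12. M5, M7, M8 and D12 had sums of 224, 217, 230 and 198, with Dbt between -1.47 and -1.27. C1, C3, C4 and D9 to D11 had sums of 250 to 290, with Dbt between -0.65 and -0.02. C2 had a sum of 236 with Dbt at -0.21, and M6 a sum of 260 with Dbt at -1.18. The part of mitochondrial content in the pathway's lower signal was not tested.

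Cell type markers also varied between rats. The summed signal of 6 leukocyte markers of 7 listed, all well above background on every array, was 1.84 to 2.17 in C1, C3 and C4 and 8.21 in C2. It was 10.6, 7.46 and 8.23 in M5, M7 and M8 and 1.92 in M6, and it was 1.64 to 2.3 in D9 to D11 and 16.8 in D12. The high rats were thus C2, M5, M7, M8 and D12. The 6 markers did not move as one. In Group M vs Group C, 4 were above and 2 below 0, with log2 differences from -0.16 to 2.49. Of them, 1 was higher at an unadjusted limma p of at most 0.05, where 9.86% of all probes were. Dbt was between -1.47 and -1.27 in M5, M7, M8 and D12, whose leukocyte sums were high, and at -0.21 in C2, whose sum was also high. Among the rats with low sums, Dbt was between -0.65 and -0.02 in C1, C3, C4 and D9 to D11, and at -1.18 in M6. Bcat1 was high in M5, M7, M8 and D12, and at -1.28 in C2. In M6, whose leukocyte sum was low, Bcat1 was at -0.63, above C1 to C4 and D9 to D11. Over the neutrophil markers, all 5 of which were measured and 3 of which were well above background on every array, the sums were 0.218 to 0.611 in Group C and 0.269 to 4.79 in Group M. They were 0.221 to 0.245 in D9 to D11 and 0.532 in D12. The sum of the 6 markers of absorptive colonocytes, the mature cells of the surface epithelium, was 64.7 to 140 in Group C with C2 lowest, and 78.4 to 117 in Group M with M6 highest. It was 95.5 to 158 in D9 to D11 and 54.7 in D12. Of these markers, Car1 met the methods' criterion in both comparisons, as 0.962% of all probes did lower in the first and 1.14% higher in the second. It differed by -1.62 log2 units between Group M and Group C and by 1.78 between Group D and Group M (limma adjusted p = 0.107 and 0.1001). D9 to D11 lay above all of Group M at Car1, Car4 (1.42), Aqp8 (2.10) and Slc26a3 (1.02), as they did for 9.06% of all probes. Guca2a and Ceacam1, the other 2 of the 6 markers, were below 0 in Group D vs Group M, the lower of them at -0.055. The 8 markers of epithelium as a whole did not follow the absorptive colonocyte markers. Their sum was 193 to 231 in Group C and 209 to 348 in Group M. In Group M vs Group C, 6 of the 8 were above 0, with a median of 0.20. Of the 8, 3 were higher at an unadjusted limma p of at most 0.05, where 9.86% of all probes were. The part of these cell types in the differences of the 11 probes was not tested.

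**Figure D5:**
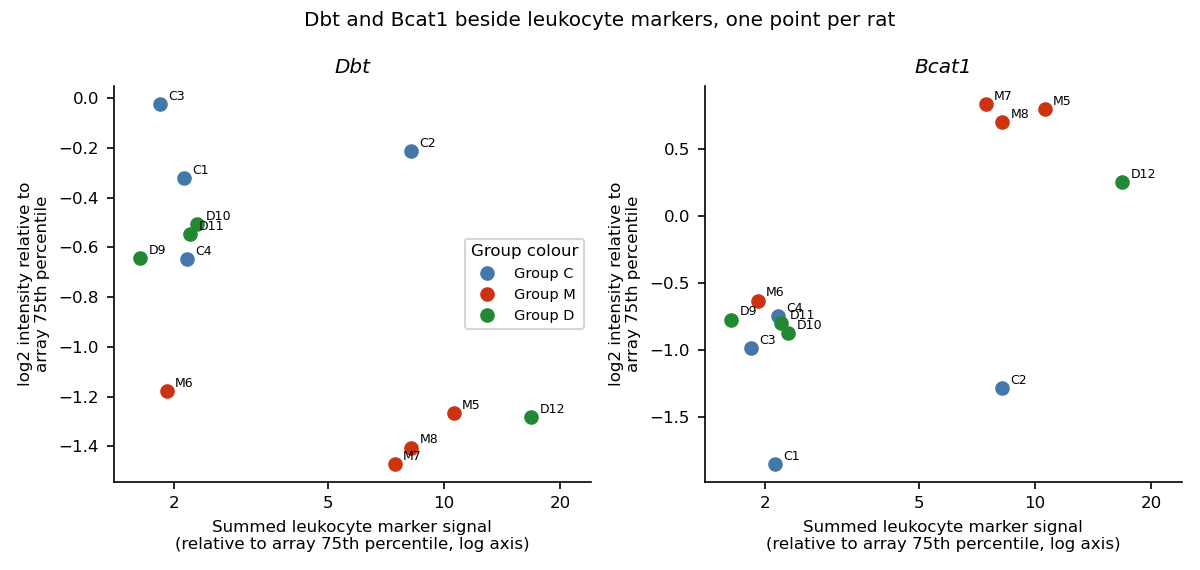
Level of Dbt (left) and Bcat1 (right), log2 relative to the array's 75th percentile, against the summed signal of 6 leukocyte markers on a log axis, 1 labelled point a rat. For Dbt, M5, M7, M8 and D12 sit low at leukocyte sums of 7.46 to 16.8, and M6 sits low at 1.92. C2 sits high at 8.21, as do C1, C3, C4 and D9 to D11 at 1.64 to 2.3. For Bcat1 the rats M5, M7, M8 and D12 sit high and C2 low, and M6 sits at -0.63 with a leukocyte sum of 1.92.

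The probes most like Dbt over the 12 arrays were sought among 10924 candidates, by the root mean square difference between centred log2 values. For scale, Dbt itself had an SD of 0.50 over these arrays. The 5 nearest were Dip2a (0.18), Mvk, the mevalonate kinase of sterol synthesis (0.18), Tex12 (0.20), Ggt6 (0.20) and Prss53 (0.20). Of the members, Mccc1 was nearest at 0.22, followed by Ivd at 0.27. Hibadh stood at 0.29, and Bcat1 was the farthest at 1.29. Prss53 shows the likeness, at -4.24 to -4.51 in Group C, -4.96 to -5.61 in Group M and -5.46 in D12.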

How the data were processed

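Colon RNA of 12 rats was measured, 1 array a rat (4 each in Groups C, M and D). Per the file headers, the deposited intensities come from Feature Extraction 10.5.1.1 with rn4 annotation. The authors labelled 100 ng RNA (RIN above 6) with Cy3. gProcessedSignal is the scanner software's background-subtracted intensity. The deposited series table holds log2 values of the same arrays (column medians 7.283 to 7.284), used as an alternative. Its scaling is not stated. Deposited flag columns marked outlier and well-above-background spots.

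Levels are log2(gProcessedSignal) minus the log2 of the array's 75th percentile, without 4259 control spots and outlier spots, with spots of a probe averaged. limma 3.58.1 (R 4.3.3; lmFit, eBayes) fitted 3 groups on 11 arrays, and Benjamini-Hochberg adjustment ran over 30367 probes, with an adjusted p of at most 0.05 as the call. The fit was tested on simulated data. The study's methods show D9 to D11 in Group D, so D12 was left out. The array number limits the precision. That rats are separate animals comes from the labels, and litters are not given.

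The 10 genes and the gene lists were chosen with earlier results of these data known. The text names all member probes, from each list the 2 genes (where there are as many) with the largest Group M vs Group C difference among those that all 12 arrays measured well above background, any list gene called, and the 5 probes most like Dbt. Some list genes that this rule names are not reported here. Promoters came from RefSeq (GRCr8). Figures used Python with matplotlib. Alternatives were other background corrections and scalings, all 12 arrays, filters, weights, blocks, the methods' criterion, and each rat left out.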

Additional observations from a re-analysis of the deposited data

Results flagged for a closer look

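Bcat1 had a rat far from the others of its group in 2 groups. The gap from M6 to the next Group M rat was 0.906 of the group's range, and the gap from D12 to the next Group D rat was 0.911 of the range, both above Dixon's critical value for 4 samples. M6 was at -0.63 with the other Group M rats between 0.70 and 0.84, and D12 was at 0.25 with the others between -0.88 and -0.77. Of 33 sets of 4 rats examined over the 11 probes, 2 passed, and chance alone flags about 1 in 20.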

How the results depend on the processing

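The direction of the Dbt difference held in each comparison under all 11 alternatives run. The Group M vs Group C value stayed between -1.08 and -0.92 and was -1.03 with all 12 arrays, with a replicate block and with only the compared groups in the model, and lost its call in each. In those settings 0.0395, 0.00329 and 0.079% of all probes were called, against 0.207% as reported. Leaving out 1 rat at a time gave -1.14 to -0.94. The call was lost without C1, C3, M5, M7, M8 or D11, where 0.0132 to 0.0593% of all probes were called. Since this contrast picked Dbt, nothing is read from its call. For Group D vs Group M, Dbt passed with normexp background correction (0.67, limma adjusted p = 0.0469), with dim probes removed (0.76, 0.0429) and with array weights (0.81, 0.00675). In these settings 1.09, 1.37 and 21.6% of all probes were called, against 0.161% as reported. Leaving out 1 rat gave 0.72 to 0.82, with a call only without M6 (0.82, limma adjusted p = 0.0144), where 15% of all probes were called.

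The 11 member probes had 1 call in Group M vs Group C, which became 0 with all 12 arrays, the replicate block or only the compared groups. It became 2 by the methods' criterion (Dbt and Bcat1), which 2.33% of all probes met, and 9 with array weights, where 25.9% of all probes were called. Their 0 calls in Group D vs Group M became 1 with normexp (1.09% of all probes), with dim probes removed (1.37%, Dbt in both) or by the methods' criterion (2.65%, Bcat1), and 8 with array weights (21.6% of all probes). Leaving out 1 rat gave 0 to 6 and 0 to 7 calls, the highest without M6 in both, where 16.2% and 15% of all probes were called. The 0 calls among the 59 other pathway genes became 30 and 20 with array weights, 1 and 1 by the methods' criterion (Slc7a5), 1 in Group D vs Group M with normexp (Slc25a44, the mitochondrial carrier of these amino acids, named after its value was seen), and 0 to 19 and 0 to 12 with 1 rat left out, again highest without M6. The shares of all probes given above for each setting apply to these counts too. The cause of these shifts was not tested. 

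Values near 0 changed sign. In Group D vs Group C, Hibadh was -0.19 with all 12 arrays, -0.00097 with quantile normalization and -0.015 in the authors' table, and -0.081 to 0.10 with 1 rat left out. Bckdha was 0.055 with normexp and 0.013 with the replicate block, and -0.15 to 0.053 with 1 rat left out. Dld was 0.020 after a shift to each array's median, and -0.10 to 0.051 with 1 rat left out. In Group D vs Group M, Ppm1k was 0.011 with all 12 arrays and 0.0098 with quantile normalization, Gcsh was -0.062 with array weights and -0.051 to 0.13 with 1 rat left out, and Bckdhb was -0.0076 to 0.20 with 1 rat left out.

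Same-numbered rats of 2 groups deviated from their group means with correlations from -0.719 to 0.584. Rats of different numbers were not compared in this way, so the range does not settle whether the numbers pair the rats. A fit with slide as a block was not run, since Group D fills its slide alone. All 11 probes were well above background, so signal over background did not limit them.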
